A study of Mus musculus with 6 samples.

Results

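The 10 genes described here encode the enzymes, structural proteins, transporters and receptors of the pigment cell: Tyr, Tyrp1, Dct, Pmel, Mlana, Slc45a2, Oca2, Gpr143, Slc24a5 and Mc1r. They were chosen by function, with earlier results of these data known, as genes of melanin synthesis and of the melanosome. They are 10 of the 23951 genes in the table. RNA was sequenced from 3 untreated mouse melanoma lines with 2 libraries each. B16-F1, a line with a low capacity to metastasize, came from the American Type Culture Collection. B16-F1R2 was established from a metastasis in a lymph node, and B16-F1R2L from a lung metastasis that itself went back to a lymph node metastasis. Both came from a laboratory at ETH Zurich, so in comparisons with B16-F1 line and source cannot be told apart. All lines were grown in the same medium. Each line stands for 1 culture history, and the sources do not say whether its 2 libraries are separate cultures, so the p-values measure only the spread between these libraries.

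Levels are given in FPKM, fragments scaled to transcript length and to mapped fragments in all, which allows genes to be compared per length. The sum of FPKM was between 596657 and 672794 per library, 10617 to 11168 genes reached 1 FPKM, and the depth, estimated from the lowest values, was 12300000 to 14800000 reads. All 10 genes passed the filter of at least 1 FPKM in at least 2 libraries, which left 11379 genes for testing. Oca2 passed it through the B16-F1 libraries, where it is high, so it had to differ from them in the test. The main counts in comparisons with B16-F1 are given with and without Oca2. Of the melanocyte lineage markers, Mitf, Sox10, Pax3 and Kit were detected in every library, whereas Ednrb, the endothelin receptor of melanoblasts, was listed at 0 in 5 libraries and at 0.0256 FPKM in 1 B16-F1R2L library. The summed levels of 4 keratinocyte, 4 fibroblast and 5 leukocyte markers stayed at or below 0.174 FPKM in each library. Of 4 endothelial markers Cdh5, Kdr and Tek were listed at 0 throughout, and Pecam1 was at 0 in B16-F1, at 0.752 and 0.758 FPKM in B16-F1R2 and at 1.09 and 1.26 FPKM in B16-F1R2L.

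Melanin is made in the melanosome, a lysosome-related organelle of pigment cells. Tyrosinase (Tyr) oxidizes tyrosine in the rate-limiting step, and the related enzymes Tyrp1 and Dct act further along the route to black-brown eumelanin. Pmel forms the fibrils on which melanin is deposited, the transporters Slc45a2, Oca2 and Slc24a5 set the ion content and pH of the organelle, and the receptor Mc1r at the cell surface raises cAMP and through it the transcription factor Mitf, which binds short E-box motifs (CATGTG or CACGTG) in promoters of pigment genes.

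The promoter stretches around such motifs are shown because Mitf, measured in the same libraries, binds motifs of this kind in promoters of pigment genes. Whether it binds these stretches was not tested. RefSeq promoters were held for 6 of the 10 genes, Tyr, Tyrp1, Dct, Oca2, Slc24a5 and Mc1r, and each matched NCBIM37 (mm9) at 1 place. The following windows of 30 bases are written 5′ to 3′ on the strand of the gene, with CATGTG or its reverse complement CACATG in capitals.
Tyr, chr7:94642026-94642055, minus strand: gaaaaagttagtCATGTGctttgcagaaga
Tyrp1, chr4:80480059-80480088, plus strand: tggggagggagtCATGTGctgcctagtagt
Dct, chr14:118451601-118451630, minus strand: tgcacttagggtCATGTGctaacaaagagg
Dct, chr14:118451683-118451712, minus strand: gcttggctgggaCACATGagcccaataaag
Mc1r, chr8:125930919-125930948, plus strand: gCACATGcccatCATGTGgccaccctcagg
Slc24a5, chr2:124893833-124893862, plus strand: ggaggaaggagactgctCACATGattcagc
Oca2, chr7:63494931-63494960, plus strand: ttgagcttgctaCACATGgctggaattttc

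CATGTG was present on either strand in 6 of the 6 promoters, within 250 bases before and 50 bases after the RefSeq start, and in 14.2% of 32851 RefSeq promoters of the same 300 bases. The longer TCATGTG, which contains CATGTG, was present in 5 of 6, all but Oca2, and in 3.77% of all promoters. AGTCATGTG, the extended form, was found in Tyr and Tyrp1, 2 of 6, and in 0.274% of all promoters. CACGTG was in 0 of the 6 and in 7.15% of all. These are matches of letters and not measured sites. The motif of Tyr began at -21 relative to the RefSeq start, which itself lies at -79 relative to the start in the GENCODE annotation. For the 2 genes that differed most between the lines, Tyr and Oca2, the 250 bases before the RefSeq start are printed with the same motif in capitals.
Tyr, chr7:94642023-94642272, minus strand: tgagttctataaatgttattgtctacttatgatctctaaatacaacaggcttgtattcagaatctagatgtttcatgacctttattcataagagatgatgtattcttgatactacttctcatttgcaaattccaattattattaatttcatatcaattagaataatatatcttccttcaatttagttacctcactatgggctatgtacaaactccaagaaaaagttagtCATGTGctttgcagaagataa
Oca2, chr7:63494879-63495128, plus strand: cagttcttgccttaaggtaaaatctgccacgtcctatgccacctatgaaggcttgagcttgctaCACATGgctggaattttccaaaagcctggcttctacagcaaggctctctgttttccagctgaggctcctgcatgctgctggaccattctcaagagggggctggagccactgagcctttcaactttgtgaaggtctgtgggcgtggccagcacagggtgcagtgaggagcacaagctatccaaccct
Each of these stretches holds CATGTG once, in Oca2 on the other strand.

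The first comparison asked how the line from the lymph node metastasis differed from B16-F1. All 10 genes were lower in both B16-F1R2 libraries than in either B16-F1 library, an order that 39.7% of all tested genes shared. All 10 passed limma's moderated test at a Benjamini-Hochberg adjusted p under 0.05 as lower and none as higher, against 27.2% and 28.2% of all tested genes, and their median log2 fold change was -1.17 against 0.0046 over all tested genes. Without Oca2 the count was 9 of 9, with the same median of -1.17. Fold changes are differences on the log2(FPKM + 0.1) scale, which understates those of low genes. With a log2 fold change of at most -1 also required 6 of the 10 were called, or 5 of 9 without Oca2, against 2.88% of all tested genes. The falls differed widely in size, from Oca2 and Tyr, which stood at 1.61% and 7.66% of their B16-F1 means, to Mlana and Mc1r, which stood at 67.6% and 67.9%. Because these were bulk libraries, fewer expressing cells and less RNA per cell cannot be told apart.

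**Figure D1:**
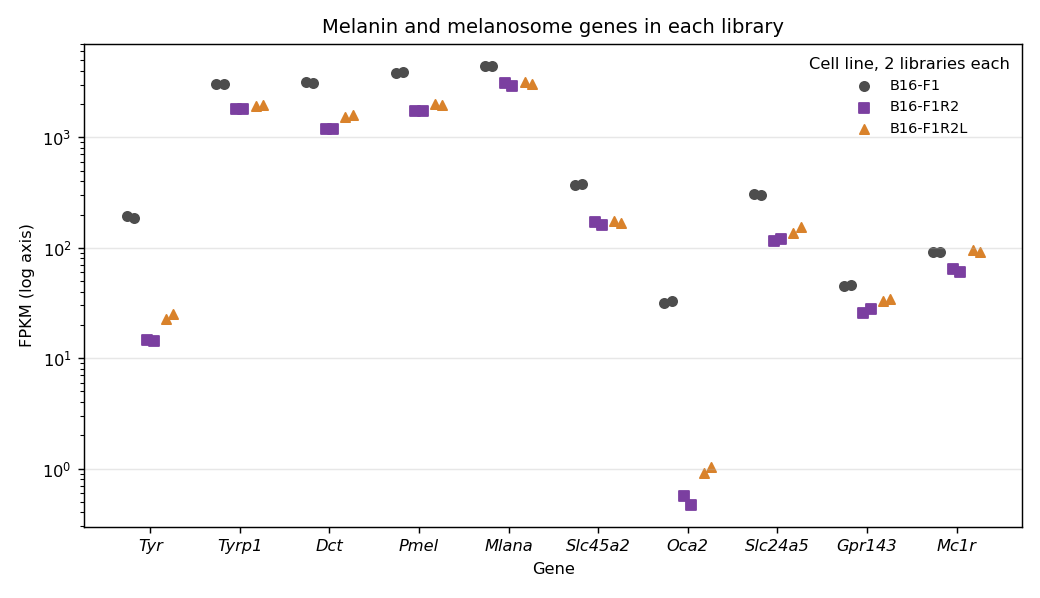
FPKM of the 10 genes on a log axis, with 1 point per library and the lines side by side. The B16-F1 points lie above the B16-F1R2 points for each gene, the gap being widest for Oca2 and Tyr, and Mc1r in B16-F1R2L lies beside its B16-F1 points.

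Among the enzymes, Tyr (chr7:94574910-94641943, minus strand, 5 exons in its longest transcript) was at 192 and 186 FPKM in B16-F1, in B16-F1R2 at 14.7 and 14.2, and in B16-F1R2L at 22.4 and 25.1. The B16-F1R2 mean was thus 7.66% of the B16-F1 mean, and no library of one line overlapped with those of another. The fall in B16-F1R2 was -3.70 ± 0.064 (log2, SE, adjusted p = 3.7e-07, limma), the 56th largest among 11379 tested genes. Tyrp1 (chr4:80480027-80497623, plus strand), which stabilizes tyrosinase and oxidizes an indole intermediate, was far more abundant than Tyr per length already in B16-F1, at 3015 and 3034 FPKM. It fell far less, to 1827 and 1817 FPKM in B16-F1R2, with 1932 and 1967 in B16-F1R2L, a difference of -0.73 ± 0.054 (log2, SE, adjusted p = 8.9e-05, limma) in B16-F1R2. Dct (chr14:118412014-118451468, minus strand), the dopachrome tautomerase, fell by an amount between theirs. Its level was 3155 and 3101 FPKM in B16-F1, in B16-F1R2 at 1203 and 1198, and in B16-F1R2L at 1542 and 1606, with a difference of -1.38 ± 0.054 (log2, SE, adjusted p = 7.4e-06, limma) in B16-F1R2. Of 5351 stretches of 50 bases in Tyr transcripts, 41 (0.766%) occurred in another protein-coding gene, and none of those of Tyrp1 or Dct did.

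Of the structural genes, Pmel (chr10:128143314-128157294, plus strand) was at 3864 and 3930 FPKM in B16-F1 and at 1736 in both B16-F1R2 libraries. B16-F1R2L was at 1987 and 1970 FPKM. The level in B16-F1R2 was 44.5% of that in B16-F1, a log2 difference of -1.17 ± 0.054 (SE, adjusted p = 1.5e-05, limma). Mlana (chr19:29772411-29782938, plus strand), the melanoma antigen needed for processing of Pmel, was the most abundant of the 10 genes per length in every library. Its values were 4430 and 4440 FPKM in B16-F1, in B16-F1R2 at 3102 and 2895, and in B16-F1R2L at 3162 and 3062. Its fall of -0.57 ± 0.067 (log2, SE, adjusted p = 6.5e-04, limma) in B16-F1R2 ended as a call when genes with low values were left in the test (adjusted p = 0.31). Exons of Pmel overlap on 98 bases with Dgka on the opposite strand, which was at 1.04 to 2.05 FPKM. Whether strand was used for the deposited values is not given in the sources used here.

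Among the transporters, Oca2 (chr7:63495130-63791887, plus strand, 25 exons), a chloride channel of the melanosome membrane, differed most between the lines. It was at 31.4 and 32.8 FPKM in B16-F1, in B16-F1R2 at 0.567 and 0.469, and in B16-F1R2L at 0.905 and 1.04. In B16-F1R2 the mean was 1.61% of that in B16-F1, a log2 difference of -5.71 ± 0.13 (SE). These values are a description, since Oca2 entered the test only through its level in B16-F1. By the estimated depth these levels correspond to about 1420 and 1358 reads in B16-F1, but only 27 and 23 in B16-F1R2 as well as 42 and 52 in B16-F1R2L, so that the low level rests on few reads. With a pseudocount of 1 or 0.01 in place of 0.1 the log2 difference was -4.45 or -5.93, and with quantile normalization -6.49. Slc45a2 (chr15:10930476-10958988, plus strand), which raises melanosome pH, was at 368 and 380 FPKM in B16-F1, in B16-F1R2 at 172 and 162, and in B16-F1R2L at 174 and 169. Both metastasis lines thus lay below B16-F1 and overlapped with each other, and the B16-F1R2 difference was -1.17 ± 0.048 (log2, SE, adjusted p = 8.4e-06, limma). Slc24a5 (chr2:124893860-124914413, plus strand), a sodium-calcium exchanger, was at 308 and 303 FPKM in B16-F1, in B16-F1R2 at 114 and 119, and in B16-F1R2L at 135 and 155. No line overlapped with another, and the fall in B16-F1R2 was -1.39 ± 0.068 (log2, SE, adjusted p = 1.8e-05, limma). Exons of Slc24a5 share 921 bases, 39.5% of their length, with Myef2 on the opposite strand, a gene at 103 and 102 FPKM in B16-F1, in B16-F1R2 at 82.9 and 88.9, and in B16-F1R2L at 89.0 and 92.1, so part of the Slc24a5 value could belong to Myef2 if strand was not used.

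The receptors were, with Tyrp1 and Mlana, the 4 genes with the smallest log2 differences in B16-F1R2. Gpr143 (chrX:149216464-149243189, plus strand), a receptor of the melanosome membrane that limits melanosome size, was at 44.8 and 46.2 FPKM in B16-F1, in B16-F1R2 at 25.6 and 28.0, and in B16-F1R2L at 33.1 and 34.7. The values rose in the order B16-F1R2, B16-F1R2L, B16-F1 without overlap, and the first differed from the last by -0.76 ± 0.058 (log2, SE, adjusted p = 1.0e-04, limma). Mc1r (chr8:125930982-125934642, plus strand, 1 exon), the melanocortin receptor, was at 91.4 and 91.8 FPKM in B16-F1, in B16-F1R2 at 63.7 and 60.6, and in B16-F1R2L at 95.3 and 90.8. B16-F1R2 was apart from the other lines, with a difference of -0.56 ± 0.046 (log2, SE, adjusted p = 1.5e-04, limma) from B16-F1, whereas the B16-F1R2L libraries lay on either side of those of B16-F1. Of 3612 stretches of 50 bases in Mc1r, 14 (0.388%) also occurred elsewhere among protein-coding transcripts.

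In the second comparison, of the line from the lung metastasis with B16-F1, limma called 9 of the 10 genes lower and 0 higher (0 also at an unadjusted p under 0.05), against 27.1% of all tested genes called lower and 29.5% called higher. The median log2 fold change of the 10 was -0.98, against 0.017 over all tested genes. Without Oca2 8 of 9 were lower, with the same median of -0.98. This comparison uses the same B16-F1 libraries as the first, so the values are given side by side and not as independent evidence. With a log2 fold change of at most -1 also required 4 were called, or 3 of 9 without Oca2, against 2.28% of all. Oca2 stood at 3.02% of its B16-F1 mean (log2 difference -4.91 ± 0.13, SE, given as a description) and Tyr at 12.6% (-2.99 ± 0.064, adjusted p = 7.2e-07, limma). Slc45a2, Slc24a5, Dct and Pmel were at 45.9%, 47.4%, 50.3% and 50.8% of their B16-F1 means. Smaller falls passed the test for Tyrp1 (-0.63 on the log2 scale), Mlana (-0.51) and Gpr143 (-0.42), whose means were 64.4%, 70.2% and 74.6% of those in B16-F1. Without the filter on low values Mlana (adjusted p = 0.35, limma) and Tyrp1 (adjusted p = 0.059, limma) were no longer called, and with quantile normalization the difference of Mlana was -0.32. Mc1r was the exception, with a log2 difference of 0.02 and a 95% interval from -0.09 to 0.13 (adjusted p = 0.70, limma). It was called higher, at 0.13 and 0.12, when the libraries were rescaled to equal sums or quantile normalized (adjusted p = 0.038 and 0.034, limma). The rescaling moved the median of all tested genes from 0.017 to 0.12 and the share of higher among all calls from 52.1% to 66.6%, whereas quantile normalization moved them to -0.047 and 44.3%.

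**Figure D2:**
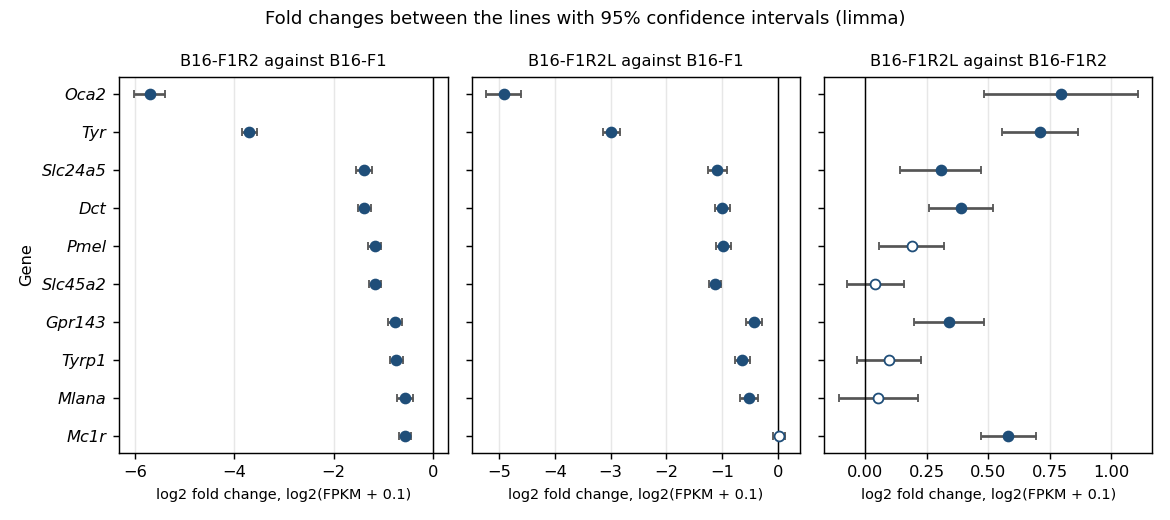
Log2 fold changes of the 10 genes in the 3 comparisons on the log2(FPKM + 0.1) scale, with points at the limma estimate and bars over the 95% interval. Oca2 and Tyr lie far below the other genes in both comparisons with B16-F1, and in B16-F1R2L against B16-F1R2 each estimate is above 0, from 0.04 for Slc45a2 to 0.79 for Oca2.

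The third comparison set the metastasis lines against each other. Here 6 of the 10 genes, Oca2, Tyr, Mc1r, Dct, Gpr143 and Slc24a5, were called higher in B16-F1R2L by limma and 0 lower (0 also at an unadjusted p under 0.05), against 12.1% of all tested genes called higher and 10.5% called lower. None reached a log2 fold change of 1, which 1.02% of all tested genes did as called. Oca2 was 1.87 times as high (log2 difference 0.79, 95% interval 0.48 to 1.11, adjusted p = 0.012, limma) and Tyr 1.64 times (0.71, 0.56 to 0.86, adjusted p = 0.0028, limma), while both remained far below B16-F1. With a pseudocount of 1 the log2 difference of Oca2 was 0.38. Mc1r was 1.50 times as high (0.58, 0.47 to 0.69, adjusted p = 0.0019, limma). The differences of Dct (0.39, adjusted p = 0.0082, limma), Gpr143 (0.34, adjusted p = 0.013) and Slc24a5 (0.31, adjusted p = 0.026) were smaller still. For the other 4 genes no difference was called, and the 95% intervals of the log2 difference ran from 0.06 to 0.32 for Pmel (adjusted p = 0.052, limma), from -0.03 to 0.23 for Tyrp1, from -0.11 to 0.22 for Mlana and from -0.07 to 0.16 for Slc45a2. The count depended on 1 library, since without B16-F1R2L replicate 2 only Tyr and Mc1r, 2 of the 10, were called and Dct (adjusted p = 0.055), Oca2 (0.061), Gpr143 (0.070) and Slc24a5 (0.071) were not. Without B16-F1R2 replicate 1 Gpr143 (adjusted p = 0.069, limma) and Slc24a5 (0.12) lost their calls. The call of Slc24a5 also ended without either B16-F1 library (adjusted p = 0.060 and 0.059, limma) or B16-F1R2 replicate 2 (0.073). Fitted on the 4 libraries compared alone, Oca2 (adjusted p = 0.058, limma) and Slc24a5 (0.059) were not called, and without the eBayes trend Slc24a5 was not (0.061). Without the filter on low values the count was also 2. It depended on the scaling as well, since with each library rescaled to a sum of 1000000 all 10 genes were called higher, while the median of all tested genes moved from 0.022 to 0.13 and the share of higher among all calls from 53.7% to 81.0%. With quantile normalization 9 were called higher, all but Slc45a2, with that median at -0.011 and that share at 49.5%.

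The order of the 10 genes by level was not the same in the 3 lines. In B16-F1 it ran Mlana, Pmel, Dct, Tyrp1, Slc45a2, Slc24a5, Tyr, Mc1r, Gpr143, Oca2, in FPKM. In B16-F1R2 Tyrp1 stood second, before Pmel and Dct, and Tyr ninth, behind Mc1r and Gpr143. In B16-F1R2L Pmel was again second and Tyr again ninth. Neighbours in these orders did not overlap in any line, but the gap was narrow for Dct and Tyrp1 in B16-F1, for Tyrp1 and Pmel in B16-F1R2 and for Pmel and Tyrp1 in B16-F1R2L, where the lowest library of the higher gene was 1.02, 1.05 and 1.00 times the highest of the lower one. Among all genes of the library, Mlana ranked 5 in both libraries of B16-F1, 17 and 16 in those of B16-F1R2, and 9 and 10 in those of B16-F1R2L. Tyr went from ranks 519 and 543 to 5283 and 5404 in B16-F1R2 and, in B16-F1R2L, to 3995 and 3602. Together the 10 genes made up 2.39% and 2.37% of the summed FPKM in B16-F1, but 1.23% and 1.26% in B16-F1R2 as well as 1.47% and 1.52% in B16-F1R2L.

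Ratios of genes within a library, which no common factor applied to a library can alter, also differed between the lines. Tyr was at 6.37% and 6.12% of Tyrp1 in B16-F1, in B16-F1R2 at 0.805% and 0.783%, and in B16-F1R2L at 1.16% and 1.28%. Oca2 was at 8.54% and 8.65% of Slc45a2 in B16-F1, in B16-F1R2 at 0.330% and 0.290%, and in B16-F1R2L at 0.520% and 0.614%. Both ratios thus had separate values in each line, lowest in B16-F1R2. Dct exceeded Tyrp1 in B16-F1, at 104.6% and 102.2%, but was at 65.9% and 66.0% of it in B16-F1R2 and at 79.8% and 81.6% in B16-F1R2L. Pmel was at 87.2% and 88.5% of Mlana in B16-F1, in B16-F1R2 at 55.9% and 60.0%, and in B16-F1R2L at 62.8% and 64.4%. By contrast, Tyrp1 relative to Mlana moved little, from 68.1% and 68.3% to 58.9% and 62.8% in B16-F1R2, with 61.1% and 64.2% in B16-F1R2L, the metastasis lines overlapping. Slc24a5 relative to Slc45a2 overlapped between B16-F1, at 83.7% and 79.8%, and B16-F1R2L, at 77.5% and 91.6%, and was at 66.6% and 73.6% in B16-F1R2. These ratios were computed for description and were not tested.

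**Figure D3:**
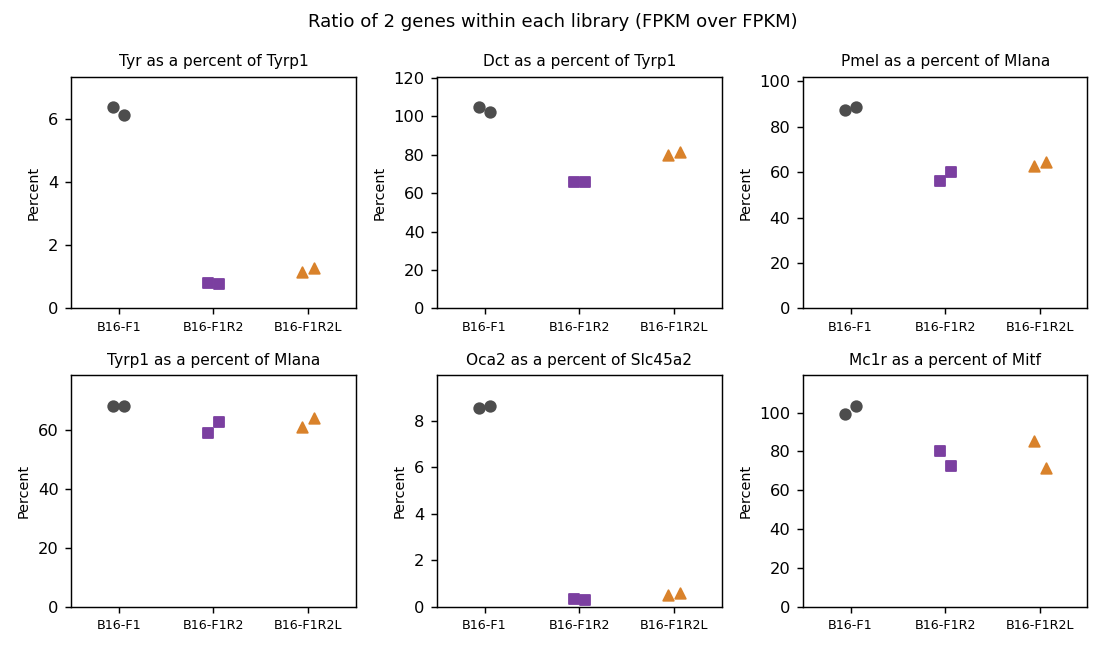
Ratios of FPKM between pairs of pigment genes, and of Mc1r to Mitf, within each library, in percent on a linear axis, with 1 point per library. Tyr relative to Tyrp1 and Oca2 relative to Slc45a2 lie lowest in B16-F1R2 and highest in B16-F1, whereas Tyrp1 relative to Mlana stays between 58.9% and 68.3%.

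The transcription factors known to act on these genes were measured in the same libraries. Mitf, the master regulator of the lineage, was at 92.3 and 88.7 FPKM in B16-F1, in B16-F1R2 at 79.5 and 83.6, and in B16-F1R2L at 112 and 127. It was thus highest in B16-F1R2L, above both B16-F1R2 (log2 difference 0.55, adjusted p = 0.0066, limma) and B16-F1 (0.40, adjusted p = 0.0032), and its difference of -0.15 between B16-F1R2 and B16-F1 was not called (adjusted p = 0.11), although it was when B16-F1R2L replicate 1, replicate 2 or both were left out of the fit (adjusted p = 0.038, limma, each time). Without the filter on low values the difference between the metastasis lines was not called either (adjusted p = 0.071, limma). Sox10, which activates Mitf and Dct, was at 221 and 228 FPKM in B16-F1, in B16-F1R2 at 163 and 165, and in B16-F1R2L at 176 and 167. It was lower in both metastasis lines, by log2 differences of -0.46 and -0.39 (adjusted p = 3.2e-04 and 6.1e-04, limma). Pax3, a partner of Sox10 at the Mitf promoter, was at 48.5 and 45.2 FPKM, 36.0 and 36.7 FPKM, and 37.8 and 39.6 FPKM in the same order of lines, also lower in both (-0.36 and -0.27, adjusted p = 0.0015 and 0.0050, limma), the latter not with rescaled libraries (adjusted p = 0.075). Mc1r was at 99.1% and 103.5% of Mitf in B16-F1, in B16-F1R2 at 80.1% and 72.5%, and in B16-F1R2L at 85.3% and 71.5%, and Gpr143 at 48.5% and 52.1%, 32.2% and 33.4%, and 29.6% and 27.3%. Relative to Mitf, Mc1r thus overlapped between the metastasis lines, and Gpr143 was lower in both B16-F1R2L libraries than in both B16-F1R2 libraries.

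The rest of the pathway was taken as 3 lists of 58 genes, of which 51 were tested. In B16-F1R2 against B16-F1, 4 of the 51 were called higher and 31 lower, with a median log2 fold change of -0.29, where 28.2% of all tested genes were called higher and 27.2% lower. In B16-F1R2L against B16-F1 the counts were 7 and 24 with a median of -0.13, beside 29.5% and 27.1% of all tested genes. In B16-F1R2L against B16-F1R2 they were 15 and 1 with a median of 0.13, beside 12.1% and 10.5%. With an absolute log2 fold change of at least 1 also required, 2 were higher and 8 lower in the first comparison (7.2% and 2.88% of all tested genes), 2 and 3 in the second (8.41% and 2.28%), and 1 and 0 in the third (1.02% and 0.211%). These counts include Kit and Mrap, which passed the filter on low values only through the lines where they were high and so had to differ. Without them 49 genes remained, with 3 higher and 30 lower in the first comparison and 6 and 23 in the second, at medians of -0.29 and -0.13. At the fold threshold 1 was higher and 7 lower in the first and 1 and 2 in the second. The counts of the third comparison at the adjusted p alone depended on single libraries. The 15 fell to 3 without B16-F1R2L replicate 2, to 4 and 6 without B16-F1R2 replicate 1 and 2, and to 8 and 9 without B16-F1 replicate 1 and 2, and the 1 lower gene was 0 without B16-F1R2L replicate 2 or B16-F1R2 replicate 1 and 2 without B16-F1R2 replicate 2. The 7 called higher for the line from the lung against B16-F1 were 4 without either B16-F1 library or without B16-F1R2L replicate 2.

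Melanosome transporters and fibril genes were mostly lower, 11 of 14 in B16-F1R2 and 10 of 14 in B16-F1R2L against B16-F1, with 1 and 2 higher and a median of -0.65 in both, where 27.2% and 27.1% of all tested genes were called lower. Mcoln1, a calcium channel of lysosomes, was at 43.4 and 38.8 FPKM in B16-F1, in B16-F1R2 at 11.1 and 11.8, and in B16-F1R2L at 15.2 and 16.02. The related Mcoln3 went the other way. It was at 6.55 and 6.91 FPKM in B16-F1, in B16-F1R2 at 27.0 and 25.9, and in B16-F1R2L at 31.1 and 34.4 FPKM, so that it was below Mcoln1 per length in B16-F1 and above it in the metastasis lines. Its log2 differences from B16-F1 were 1.96 and 2.27 (adjusted p = 4.6e-06 and 2.5e-06, limma). Tpcn2, a cation channel of the melanosome, was at 4.25 and 4.07, 4.46 and 4.58, and 4.80 and 5.14 FPKM in the 3 lines, and its call as higher in the last against the first (0.25, adjusted p = 0.043, limma) ended without any 1 of the 6 libraries (adjusted p = 0.059 to 0.17). The call of Tpcn2 also ended with a replicate block or only the 4 compared libraries (adjusted p = 0.064 each, limma) and with median ratios (0.052). With quantile normalization its log2 difference was 0.011 (adjusted p = 0.92, limma). It held with other pseudocounts, without the filter, with rescaled libraries and without the eBayes trend. Trpm1, a cation channel of pigment cells, was at 62.7 and 67.3, 23.4 and 23.0, and 32.4 and 35.1 FPKM in B16-F1, B16-F1R2 and B16-F1R2L, a fall of -1.48 (log2) in B16-F1R2. Bace2, the protease that trims Pmel for fibril formation, was at 104 and 106, 47.4 and 46.6, and 54.8 and 60.6 FPKM, and was called lower in B16-F1R2L (-0.86 on the log2 scale, adjusted p = 5.4e-05, limma). Slc7a11, the cystine transporter of the red-yellow pheomelanin route, was at 5.62 and 4.70 FPKM in B16-F1, in B16-F1R2 at 1.95 and 2.55, and in B16-F1R2L at 5.11 and 6.29. It was the largest difference of the lists between the metastasis lines, at 1.31 on the log2 scale (adjusted p = 0.0075, limma), but missed the threshold without B16-F1R2L replicate 2 (adjusted p = 0.050). In that comparison 6 of the 14 were called higher, beside 12.1% of all tested genes. Trpm1 (0.54), Mcoln1 (0.45) and Clcn7 (0.39), a chloride-proton exchanger at 29.0 and 27.2, 13.2 and 12.7, and 15.9 and 18.2 FPKM in the 3 lines, were among them. The calls of Mcoln1 and Clcn7 ended without B16-F1R2 replicate 1 (adjusted p = 0.072 and 0.081, limma) or B16-F1R2L replicate 2 (0.067 and 0.073), and that of Clcn7 also without B16-F1R2 replicate 2 (0.081).

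Genes of melanosome assembly and trafficking were lower for 13 of 26 and higher for 2, with a median of -0.15 in B16-F1R2 against B16-F1, while 8 were lower and 3 higher, with a median of -0.09, in B16-F1R2L. Of all tested genes 27.2% were called lower in the first and 27.1% in the second comparison, so that the 8 of 26 were close to the share of all genes. Rab32, a small GTPase that directs melanogenic enzymes to the melanosome, fell most of them. It was at 47.1 and 51.4 FPKM in B16-F1, in B16-F1R2 at 20.1 and 17.6, and in B16-F1R2L at 21.8 and 21.9. The differences were -1.38 and -1.17 (log2, adjusted p = 3.1e-05 and 5.7e-05, limma). Its close relative Rab38, given here for comparison after its values were seen, was at 338 and 344, 323 and 322, and 378 and 403 FPKM. It was not called in B16-F1R2 against B16-F1 (-0.081 on the log2 scale, adjusted p = 0.19, limma) and was called higher in B16-F1R2L against both (0.19 and 0.28, adjusted p = 0.013 each). The higher genes moved little. Ap3m1, an adaptor subunit, was at 24.9 and 25.7 FPKM in B16-F1, in B16-F1R2 at 31.2 and 29.8, and in B16-F1R2L at 29.6 and 31.2. Rabggta, a subunit of the enzyme that attaches lipid to Rab proteins, was at 6.35 and 7.22 FPKM in B16-F1, in B16-F1R2 at 8.94 and 8.48, and in B16-F1R2L at 6.29 and 6.17. Its call as higher for B16-F1R2 against B16-F1 (0.36, adjusted p = 0.012, limma) ended without B16-F1 replicate 1 (adjusted p = 0.071) or B16-F1R2 replicate 1 (adjusted p = 0.068). It was the 1 gene of the lists called lower in B16-F1R2L against B16-F1R2 (-0.48, adjusted p = 0.015, limma), against 7 of the 26 called higher with a median of 0.10 (12.1% of all tested genes were called higher), and its call ended without B16-F1R2 replicate 1 (adjusted p = 0.086) or B16-F1R2L replicate 2 (adjusted p = 0.075).

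Of 18 pigment regulators 17 were in the table and 11 were tested. In B16-F1R2 against B16-F1, 7 were lower and 1 higher with a median of -0.31, and in B16-F1R2L against B16-F1, 6 were lower and 2 higher with a median of -0.24, where 27.2% and 27.1% of all tested genes were called lower and 28.2% and 29.5% higher. Against B16-F1R2, B16-F1R2L had 2 of 11 higher, beside 12.1% of all tested genes. Kit and Mrap, bound to differ by the filter, are 1 of the lower and 1 of the higher genes in both comparisons with B16-F1 and carry no weight there. Kit, the receptor for stem cell factor, was low already in B16-F1, at 1.63 and 1.74 FPKM, and was at 0.261 and 0.362 in B16-F1R2 against 0.447 and 0.396 in B16-F1R2L, with log2 differences of -2.13 and -1.78 from B16-F1, given as a description. With a pseudocount of 1 these differences of Kit were -1.03 and -0.92, and with quantile normalization -3.02 and -2.87. Mrap, an accessory protein of melanocortin receptors, was listed at 0 in both B16-F1 libraries, at 27.0 and 26.8 FPKM in B16-F1R2, with 25.1 and 23.6 in B16-F1R2L. No fold is given for it.

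**Figure D4:**
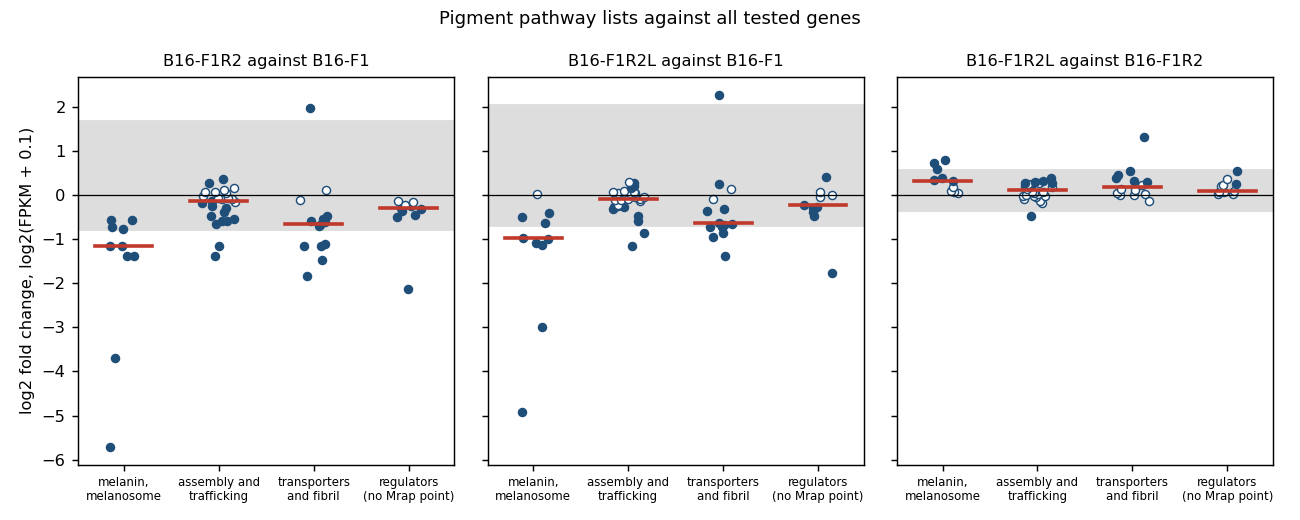
Log2 fold changes of the 10 melanin and melanosome genes and of the 3 wider lists in each comparison, with 1 point per tested gene, filled where the adjusted p is under 0.05, a red line at the median of the list and a grey band from the 5th to the 95th percentile of all tested genes. The point of Mrap, which is listed at 0 in B16-F1, is left out, and the medians of the 10 genes are -1.17, -0.98 and 0.32 in the 3 comparisons.

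The falls of Tyr and Oca2, which lie far apart on chromosome 7, were set against the genes around them, a description added after the values were seen. The 10 tested genes nearest to Tyr, 5 on each side, had a median log2 fold change of 0.22 in B16-F1R2 against B16-F1, with a range from -0.57 to 1.54. Around Oca2 the median was 0.07 with a range from -1.48 for Trpm1 to 0.86. Herc2, whose human counterpart holds the switch that acts on OCA2, was at 8.47 and 8.27 FPKM in B16-F1, in B16-F1R2 at 8.70 and 9.50, and in B16-F1R2L at 10.3 and 9.86. Neither Tyr nor Oca2 thus shared its size of fall with a tested neighbour. Among the neighbourhoods of all 10 genes, that of Dct had the lowest median, -0.48 in B16-F1R2 with a range from -0.73 to 0.19 and -0.37 in B16-F1R2L against B16-F1, and in B16-F1R2 the medians around the other 9 genes lay between -0.077 and 0.37. Single neighbours lay far from these medians in B16-F1R2 against B16-F1. The ranges were -6.39 to 1.44 around Gpr143, -2.03 to 1.62 around Mlana, -1.65 to 0.94 around Pmel and -0.38 to 2.95 around Slc45a2.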

How the data were processed

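Polyadenylated RNA of 6 libraries was sequenced on an Illumina platform as single-end reads of 50 bases from a stranded kit. Per the study's methods and the submitters' processing notes, reads were aligned to mm9 with TopHat2 2.0.10, Bowtie 1.0.0 and SAMtools 0.1.1.9, with 2 mismatches and 20 positions allowed, after FastQC 0.10.1. The authors deposited FPKM values in 1 table, with replicates not pooled. The notes name Cuffnorm. The gene annotation, the use of strand and the depth are not given in the sources used here. Differential expression in the study used DESeq2, which was not applied here because FPKM are not counts.

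Groups were taken from the sample labels. Of all genes, 11379 reached 1 FPKM in 2 or more libraries, and their log2(FPKM + 0.1) was fitted by limma 3.58.1 (R 4.3.3), with contrasts of lmFit estimates and a trended eBayes step, over all 6 libraries, two-sided, with Benjamini-Hochberg adjustment over all tested genes and a threshold of 0.05. An exact permutation test of 2 against 2 libraries cannot give a p below 0.333 and was not used. The fit was tested on simulated data. Depth was estimated from the lowest FPKM of genes with 1 transcript, so read numbers are approximate, and intervals that need counts were not computed.

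The 10 genes and all lists were chosen with earlier results of these data known. Named were the 10 genes, Mitf, Sox10 and Pax3, at most 5 called genes of the wider lists per direction and comparison by absolute log2 fold change, and the 3 tested genes closest in profile to each of the 10. Other genes are said to be chosen after their values were seen. Asip, on the list of regulators, was not analysed here. Positions, exons and shared stretches of 50 bases came from NCBIM37 with GENCODE vM1. Promoters came from RefSeq (GRCm38.p6) and were placed in NCBIM37 by exact match. Other steps ran in Python 3.11.15 (numpy 2.4.6, pandas 2.3.3, matplotlib 3.10.9). The alternatives were other pseudocounts, filters and scalings, eBayes without a trend, a fit of the 4 compared libraries alone, a replicate block, a fold threshold and leaving out each library.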

Additional observations from a re-analysis of the deposited data

How the results depend on the processing

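With an absolute log2 fold change of at least 1 also required, 6 of the 10 genes were lower in B16-F1R2 and 4 in B16-F1R2L than in B16-F1, and 0 were called higher for B16-F1R2L against B16-F1R2. The wider lists then had 2 higher and 8 lower, 2 and 3, and 1 and 0. Of all tested genes 7.2% and 2.88%, 8.41% and 2.28%, and 1.02% and 0.211% were called so. Rescaled to a sum of 1000000, 1 of the 10 genes was called higher for B16-F1R2L against B16-F1, as with quantile normalization, and 10 were higher than in B16-F1R2, with 25 of the wider lists. The share of higher among all calls then moved from 52.1% to 66.6% and from 53.7% to 81.0%. Without the filter, 2 of the 10 and, in the wider lists, 2 higher and 0 lower were called between the metastasis lines. The 15 higher were 9 without the eBayes trend and 9 with only the 4 compared libraries. Leaving out 1 library gave 10 to 10 lower of the 10 genes in B16-F1R2, 9 to 9 in B16-F1R2L, and 2 to 6 higher between the metastasis lines. The wider lists gave 3 to 5 higher and 27 to 33 lower, 4 to 6 and 23 to 25, and 3 to 14 and 0 to 2. An arm of 1 library was assumed to vary like the others. The counts above against B16-F1 include Oca2, and in the wider lists Kit and Mrap, which had to differ by the filter. Oca2 was 1 of the lower genes in every setting. Among named genes not called, Mc1r in B16-F1R2L against B16-F1 turned to -0.0023 with median ratios and -0.013 without B16-F1R2L replicate 1 (to 0.058 over the libraries left out), and Slc45a2 between the metastasis lines to -0.0030 without B16-F1R2 replicate 2 (to 0.085). The causes were not tested.

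The replicate numbers share only a name, since differences between same-numbered libraries correlated at 0.052, -0.10 and 0.079 over 11379 genes. With a replicate block, 10 and 9 of the 10 genes were lower and 6 higher, as without it, and the wider lists had 4 higher and 31 lower, 6 and 24, and 13 and 1. The counts against B16-F1 here, too, include Oca2, Kit and Mrap, which had to differ by the filter. Depth limits Oca2 in the metastasis lines, where it rests on few reads.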

Other observations

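For each of the 10 genes, the other tested genes with the most similar profile over the 6 libraries were found by the Euclidean distance between centred log2(FPKM + 0.1) values, which is a description over 6 libraries of 3 lines and carries no test. Closest to Tyr was Basp1, a membrane-associated signalling protein, at a distance of 0.17, with 55.7 and 56.0 FPKM in B16-F1, in B16-F1R2 at 4.20 and 4.46, and in B16-F1R2L at 6.44 and 8.12. The nearest of the other pigment genes to Tyr was Oca2, at 2.28. Closest to Oca2 was N4bp3 at 0.36, with 5.69 and 5.70 FPKM in B16-F1, 0 in both B16-F1R2 libraries and 0.0383 and 0.0950 in B16-F1R2L. Closest to Mc1r was Gsdmc, a gasdermin, at 0.098, with levels of 28.5 and 28.2 FPKM in B16-F1, in B16-F1R2 of 19.5 and 19.3, and in B16-F1R2L of at most 30.2. Gstm1, a glutathione transferase, was closest to both Dct (0.061) and Slc24a5 (0.14), with 88.4 and 87.3, 33.8 and 32.3, and 41.9 and 45.0 FPKM, and Dct stood next to Slc24a5 at 0.15. Closest to Tyrp1 was Idi1, an enzyme of isoprenoid synthesis, at 0.044, with 46.9 and 47.9, 29.2 and 29.2, and 30.2 and 31.0 FPKM. The other genes closest in profile, with their distances, were Mgll (0.60) and Pde7b (0.64) for Tyr, Sdk1 (0.46) and Pde8a (0.82) for Oca2, and Pld1 (0.13) and Extl1 (0.13) for Mc1r. For Dct they were Zdhhc14 (0.094) and Gyg (0.11), for Slc24a5 Gyg (0.17), and for Tyrp1 Renbp (0.059) and Ldlrad3 (0.062). Closest to Pmel were Ppard (0.087), Ncald (0.10) and Smpd1 (0.11), and to Mlana Atp6v1f (0.050), Exoc4 (0.066) and Zbtb5 (0.072). Closest to Slc45a2 were Ehd3 (0.097), Hvcn1 (0.098) and B3gat3 (0.10), and to Gpr143 Rap2b (0.084), Ube2h (0.094) and Tbc1d24 (0.096). N4bp3, Sdk1 and Pde7b were below or near the pseudocount of 0.1 FPKM in the metastasis lines, so their distances and places depend on it.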
